A study of Mus musculus with 16 samples.

Results

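The 39 Hox genes of the mouse were followed through the aortas of 16 mice. Members were taken as protein-coding rows of the expression tables whose symbol named a Hox gene of cluster A, B, C or D, which gave 40 of 54532 rows. The symbol Hoxd4 stood on 2 of these rows, of which 1 held no count in any library, so the rows stood for 39 genes. 28 of the 39 reached a mean of 0.1 FPKM over the 16 libraries (fragments per kilobase of gene scaled to library depth, the authors' unit), and 23 reached 1 FPKM. The aorta carried a Hox pattern built on the HoxA and HoxB clusters and on paralogs 4 to 7, with a steep fall beyond paralog 10 and a HoxD cluster that was nearly silent outside Hoxd8 and Hoxd9. Against Sham mice, Hoxa3, Hoxb3 and Hoxb6 fell and Hoxc8 rose in 5/6 Nx-HPi-Lp mice, while most members tested differed by less than 2-fold. The share of Hox genes called there (2-fold change and adjusted p of at most 0.05) was 17.9%, near the 22.2% of all genes tested. Hoxc8 also rose in both other 5/6 Nx groups, and Hoxb3 also fell in 5/6 Nx-HPi-Hp mice. No Hox gene was called between 5/6 Nx-HPi-Lp mice and either other 5/6 Nx group.

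Hox genes encode transcription factors with a homeodomain, a DNA-binding fold, and they give cells an address along the body axis. They stand in 4 clusters in mammals, and genes at the same relative place in different clusters are paralogs that share a number. Low numbers are switched on early and toward the head, and high numbers late and toward the tail, in the order of the genes on the chromosome. Vascular cells keep part of this address in the adult, and arch, thoracic and abdominal aorta are known to differ in their Hox genes.

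All mice were C57BL/6J, and the study's methods describe adult males. Each group held 4 mice. The diet of Sham mice and of 5/6 Nx-HPi-Lp mice held 2.5% protein and 2% phosphorus. 5/6 Nx-HPi-Hp mice received 2% phosphorus with 18% protein, and 5/6 Nx-LPi-Lp mice received 0.3% phosphorus with 2.5% protein. Each diet was given for 30 days. 5/6 Nx is the removal of most kidney tissue in a pair of operations, a model of chronic kidney disease, and Sham mice were operated without it. No Sham group received either of the other diets, so surgery and diet cannot be told apart for 5/6 Nx-LPi-Lp and 5/6 Nx-HPi-Hp mice against Sham mice. The labels name the tissue as aorta without a segment, and the study's methods describe RNA from ground whole aortas under their PCR assay. Where the collected vessel differed in extent between mice, a difference in the stretch of vessel taken and a difference in the cells of that stretch cannot be told apart.

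Library totals ran from 13659525 to 57276915 counts, and the Hox genes took 3828 to 13605 counts of a library. Smooth muscle markers were present in every library, and their summed FPKM was lower in each 5/6 Nx-HPi-Lp mouse (858 to 1981) than in any Sham mouse (7947 to 10005). All 8 smooth muscle genes were called lower in that comparison, beside 7.18% of all genes tested, with Acta2, Myh11, Tagln and Cnn1 among them. In bulk RNA, fewer cells of a type and less RNA per cell cannot be told apart. Some libraries also stood apart in markers of tissue around the vessel. Replicate 2 of the 5/6 Nx-LPi-Lp mice held a heart muscle sum of 1437 FPKM, against 8.05 to 22.7 in Sham mice, and 5/6 Nx-HPi-Hp replicates 1 and 2 held 342 and 205 FPKM. Replicates 1, 3 and 4 among 5/6 Nx-HPi-Lp mice held sympathetic neuron sums of 889, 158 and 640 FPKM, against 39.6 in replicate 2 and 50.2 to 74.3 in Sham mice. These values are plotted by library with those of the adipocyte list. Other lists set all 5/6 Nx-HPi-Lp mice apart from Sham mice, without overlap. Lung epithelium sums were 14.2 to 131 FPKM against 1.2 to 2.71 in Sham mice, and kidney tubule sums 5.67 to 18.1 against 0.851 to 2.46. In that comparison only 2 of 8 lung genes and 3 of 9 kidney genes passed the filter on low counts.

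**Figure D1:**
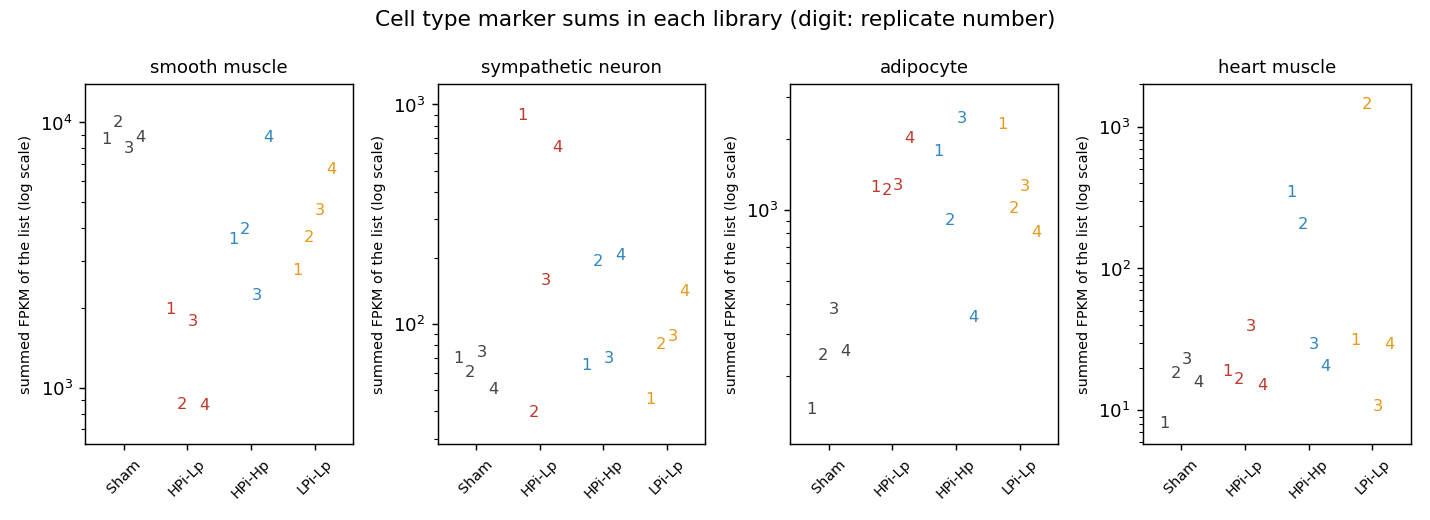
Summed FPKM (log axis) of the smooth muscle, sympathetic neuron, adipocyte and heart muscle marker lists in each of the 16 libraries, with groups on the x axis and each library drawn as its replicate number (5/6 Nx is left out of the axis labels). The smooth muscle sums of the 4 5/6 Nx-HPi-Lp libraries lie below all others, and the heart muscle sum of 5/6 Nx-LPi-Lp replicate 2 lies above all others.

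Cluster A, on chromosome 6 from 52155590 to 52260880 (mm10), held 46.2% of the summed Hox FPKM averaged over the 16 libraries. Cluster B, on chromosome 11 from 96194316 to 96368256, held 37.4%. Cluster C, on chromosome 15 from 102921103 to 103036852, held 12.9%, and cluster D, on chromosome 2 from 74668310 to 74765142, held 3.57%. The same signal, sorted by paralog number, peaked in the middle of the clusters. Paralog 4 held 19.3%, paralog 7 held 17.4%, paralog 5 held 17% and paralog 6 held 15.3%. By contrast paralogs 11, 12 and 13 together were close to nothing, at 0.382%, 0.0197% and 0.0347%.

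**Figure D2:**
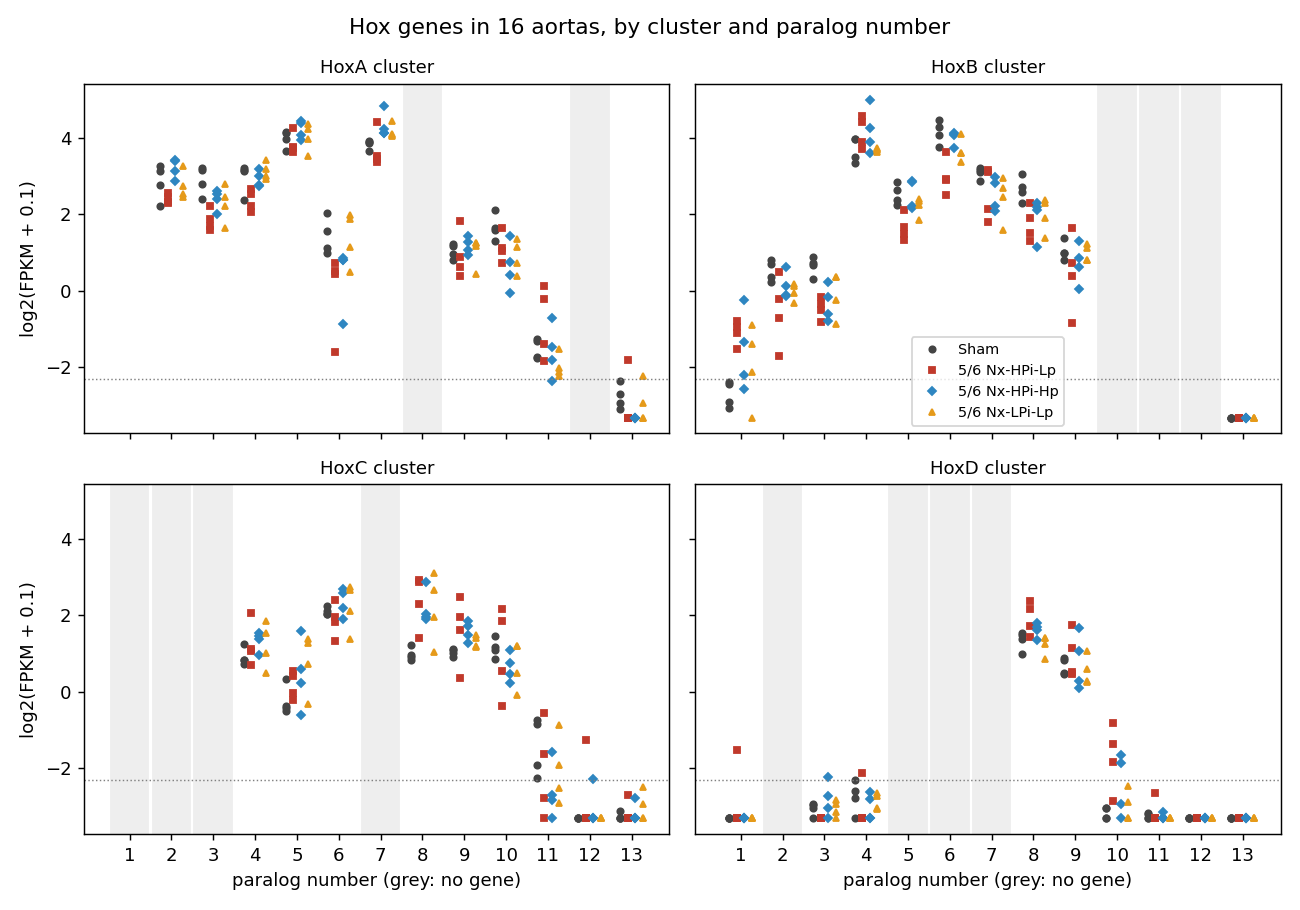
Levels of the Hox genes in 16 libraries as log2(FPKM + 0.1), 1 panel per cluster, with the paralog number on the x axis, 1 point per library and groups by colour and shape. The dotted line marks 0.1 FPKM and grey bands mark paralog numbers with no gene in that cluster. Most HoxA, HoxB and HoxC genes up to paralog 10 lie above the line, and in HoxD the genes at 8 and 9 stand alone.

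The 4 highest members, Hoxa7, Hoxa5, Hoxb4 and Hoxb6, made up 47.4% of the Hox sum. Their means over 16 libraries were 16.6, 16.4, 16 and 13.8 FPKM, and their ranges overlapped widely. Among protein-coding genes these means stood at percentiles 87.4, 87.4, 86.9 and 85.1 of the level. As a set, 59% of the Hox genes reached 1 FPKM against 52.4% of all 22046 protein-coding rows. Next in order came Hoxa4 (7.36 FPKM), Hoxa2 (7.18), Hoxb7 (6.54), Hoxa3 (5.3), Hoxb5 (4.82), Hoxc6 (4.46), Hoxb8 (4.42) and Hoxc8 (4.29). Below these lay Hoxd8 (2.88), Hoxc9 (2.66), Hoxc4 (2.25), Hoxa10 (2.17), Hoxa9 (2.03), Hoxa6 (1.97), Hoxc10 (1.93), Hoxb9 (1.76), Hoxd9 (1.67), Hoxc5 (1.26), Hoxb2 (0.989), Hoxb3 (0.934), Hoxa11 (0.307), Hoxb1 (0.237) and Hoxc11 (0.194). Neighbours in this order overlapped in their ranges over libraries.

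Hoxa7, the highest HoxA gene (chr6:52214491-52221854, minus strand), is a trunk gene in the embryo. Sham mice had 14.9, 12.5, 14.5 and 15 FPKM and 5/6 Nx-HPi-Lp mice 21.2, 10.9, 10.3 and 11.5. The 5/6 Nx-HPi-Hp mice had 17.5, 28.5, 18.9 and 17.4 FPKM and 5/6 Nx-LPi-Lp mice 21.5, 16.5, 16.8 and 17.1. One mouse in each of the 5/6 Nx groups stood above the rest of its group, and 3 of the 4 5/6 Nx-HPi-Lp mice lay below every Sham mouse. 20.4% of the exonic bases of Hoxa7 are shared with an antisense transcript, Hoxaas3, and strand use in counting is not given in the sources used here.

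Hoxb4, the highest HoxB gene (chr11:96318267-96321638, plus strand), is known from blood stem cells as well as from the axis. Its level was 15.6, 10.2, 11.2 and 15.6 FPKM in Sham mice and 21.4, 14.8, 23.8 and 13 in 5/6 Nx-HPi-Lp mice. It was 14.7, 32.1, 19.2 and 12.1 FPKM in 5/6 Nx-HPi-Hp mice and 12.3, 13, 12.9 and 13.3 in 5/6 Nx-LPi-Lp mice. Both HPi groups of 5/6 Nx mice spread widely and the 5/6 Nx-LPi-Lp mice hardly at all, and all groups overlapped Sham mice.

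Hoxc6 led cluster C (chr15:102998257-103011881, plus strand), with 4.65, 3.97, 3.99 and 4.21 FPKM in Sham mice and 5.13, 2.39, 3.45 and 3.74 in 5/6 Nx-HPi-Lp mice. Its values were 3.66, 5.85, 6.38 and 4.5 FPKM in 5/6 Nx-HPi-Hp mice and 6.54, 2.51, 6.24 and 4.18 in 5/6 Nx-LPi-Lp mice. Sham mice were tightly grouped and the others straddled them. The HoxC row with the widest span was Hoxc5, drawn from chr15:102967443-103017429, which encloses Hoxc9, Hoxc8 and Hoxc6. It shares 5.37% of its exonic bases with Hoxc10.

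Cluster D rested on a pair of genes. Hoxd8 (chr2:74704615-74707933, plus strand) had 1.89, 2.5, 2.81 and 2.71 FPKM in Sham mice and 4.41, 5.04, 2.59 and 3.21 in 5/6 Nx-HPi-Lp mice. In 5/6 Nx-HPi-Hp mice it was 2.43, 2.97, 3.38 and 3.11 FPKM and in 5/6 Nx-LPi-Lp mice 2.55, 1.72, 2.25 and 2.54. Its high values lay in 5/6 Nx-HPi-Lp replicates 1 and 2, and its neighbour Hoxd9 spread in the same libraries less regularly. Hoxd9 (chr2:74697727-74700208) gave 1.31, 1.27, 1.67 and 1.74 FPKM in Sham mice and 3.27, 1.33, 1.28 and 2.12 in 5/6 Nx-HPi-Lp mice. It gave 0.975, 1.11, 3.07 and 1.99 FPKM in 5/6 Nx-HPi-Hp mice and 1.98, 1.1, 1.41 and 1.08 in 5/6 Nx-LPi-Lp mice, so single libraries set the high end in each of these groups. Hoxd8 also differed among the 4 groups in the fit over 16 libraries (adjusted p = 0.0324 by the quasi-likelihood test of edgeR, adjusted after Benjamini-Hochberg).

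Mean levels fell steeply at the tail end of the clusters. Hoxa10 averaged 2.17 FPKM and Hoxa11 0.307, a ratio of 7.08. Hoxc10 averaged 1.93 FPKM and Hoxc11 0.194, a ratio of 9.95, and Hoxd9 and Hoxd10 (0.0962 FPKM) differed by a ratio of 17.4. The lower-numbered gene was higher in 16 of 16 libraries in each of these 3 pairs, though by unequal steps. In 5/6 Nx-HPi-Hp replicate 3, for example, Hoxa10 had 0.858 FPKM and Hoxa11 0.511. In cluster B, which has no paralogs 10 to 12, Hoxb9 was followed by Hoxb13, which held no count anywhere.

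Hoxa11, which patterns limb and reproductive tract, was the highest-numbered HoxA gene at 0.1 FPKM or more. It stood at 0.193, 0.201, 0.32 and 0.301 FPKM in Sham mice and 0.99, 0.18, 0.754 and 0.283 in 5/6 Nx-HPi-Lp mice. Values were 0.0934, 0.26, 0.511 and 0.186 FPKM in 5/6 Nx-HPi-Hp mice and 0.146, 0.111, 0.129 and 0.247 in 5/6 Nx-LPi-Lp mice. The high 5/6 Nx-HPi-Lp values came from replicates 1 and 3. The log2 fold change against 5/6 Nx-LPi-Lp mice was 1.75 ± 0.66 (SE), with an adjusted p of 0.0885 by edgeR. Antisense Hoxa11os covers 35.0% of its exonic bases.

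Hoxb9, a thoracic gene in the embryo, was the last HoxB gene detected. It read 1.87, 1.87, 2.51 and 1.64 FPKM in Sham mice and 3.01, 1.2, 0.455 and 1.56 in 5/6 Nx-HPi-Lp mice, then 0.933, 1.45, 1.73 and 2.37 in 5/6 Nx-HPi-Hp mice and 2.07, 1.66, 2.23 and 1.64 in 5/6 Nx-LPi-Lp mice. All groups overlapped, and both the highest and the lowest library were 5/6 Nx-HPi-Lp mice. Hoxc11 closed cluster C with 0.455, 0.165, 0.106 and 0.492 FPKM in Sham mice and 0.224, 0.0443, 0 and 0.577 in 5/6 Nx-HPi-Lp mice. It had 0.0528, 0, 0.0386 and 0.236 FPKM in 5/6 Nx-HPi-Hp mice and 0.165, 0.0315, 0.0729 and 0.442 in 5/6 Nx-LPi-Lp mice, and all groups overlapped on 0 to 26 counts per library.

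Of the 11 members under 0.1 FPKM, Hoxb13, Hoxd12 and Hoxd13 had no count in any library. Hoxd1 had 7 counts, all in 5/6 Nx-HPi-Lp replicate 4, and Hoxc12 had 7 counts in 2 libraries. Hoxa13 had 26 counts in all, Hoxc13 10, Hoxd3 25, Hoxd4 38 and Hoxd11 14. Hoxd10 sat just under the 0.1 FPKM line and was not spread evenly. Its counts were 1, 0, 0 and 1 in Sham mice and 13, 18, 3 and 8 in 5/6 Nx-HPi-Lp mice. They were 1, 0, 5 and 6 in 5/6 Nx-HPi-Hp mice and 0, 1, 2 and 0 in 5/6 Nx-LPi-Lp mice. Every 5/6 Nx-HPi-Lp library held more Hoxd10 counts than any Sham library, but the gene failed the filter on low counts and was not tested in the edgeR fit. These counts are not scaled to depth. Replicates 2 and 3 of 5/6 Nx-HPi-Lp held 57276915 and 46499243 counts in total, against 20795568 to 24204348 in Sham libraries. Just inside the 0.1 FPKM line stood Hoxc11 at 0.194 FPKM and Hoxb1 at 0.237.

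The promoters of the Hox genes were described by their CpG dinucleotides, the pairs at which DNA can be methylated. RefSeq promoters (GRCm38.p6, 250 bases before to 50 after the start) were given for 22 of the 39 genes, as 24 windows. The median ratio of observed to expected CpG was 0.593 for the 13 windows of members at 1 FPKM or more and 0.805 for the 9 windows of members under 0.1 FPKM, and the windows ran from 0.280 to 1.02 and from 0.257 to 0.920. It was 0.384 over all 32851 promoters, and no test was run. The motif TGATTNAT, a site type bound by Hox proteins with their Pbx partners, occurred on either strand in 2 of the 24 windows (8.33%) and in 3.22% of all promoters. The 150 bases before the start are shown for a pair of strongly expressed members (Hoxa5, chr6:52204588-52204737, - strand, and Hoxb4, chr11:96318117-96318266, + strand), for Hoxb1, which was called higher in 5/6 Nx-HPi-Lp mice (chr11:96365608-96365757, + strand), and for a pair of near-silent HoxD genes (Hoxd12, chr2:74674863-74675012, + strand, and Hoxd1, chr2:74762830-74762979, + strand). Capitals mark CpG dinucleotides.
Hoxa5: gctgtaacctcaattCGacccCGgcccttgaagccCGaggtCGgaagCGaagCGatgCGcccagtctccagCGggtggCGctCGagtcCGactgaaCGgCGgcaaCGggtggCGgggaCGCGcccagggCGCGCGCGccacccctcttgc
Hoxb4: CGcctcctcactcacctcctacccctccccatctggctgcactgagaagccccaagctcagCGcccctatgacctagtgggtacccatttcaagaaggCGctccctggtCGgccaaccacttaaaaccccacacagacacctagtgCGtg
Hoxb1: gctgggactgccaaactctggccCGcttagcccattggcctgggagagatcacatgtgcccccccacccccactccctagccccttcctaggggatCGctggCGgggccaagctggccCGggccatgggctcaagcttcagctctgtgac
Hoxd12: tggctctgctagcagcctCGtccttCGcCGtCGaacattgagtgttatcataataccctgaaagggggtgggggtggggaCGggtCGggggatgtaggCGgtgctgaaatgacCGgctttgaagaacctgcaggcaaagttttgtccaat
Hoxd1: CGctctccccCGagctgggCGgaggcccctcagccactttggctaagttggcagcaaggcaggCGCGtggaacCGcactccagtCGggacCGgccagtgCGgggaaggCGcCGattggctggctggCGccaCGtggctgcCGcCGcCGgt
The stretch held 21 CpG in Hoxa5 and 5 in Hoxb4, both strongly expressed. It held 8 in Hoxd12, which had no count, and 16 in Hoxd1, which had 7.

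The Hox sum of a library was 137 ± 19.9 FPKM in Sham mice (SD, n = 4), 117 ± 28 in 5/6 Nx-HPi-Lp mice, 147 ± 14.4 in 5/6 Nx-HPi-Hp mice and 130 ± 21.3 in 5/6 Nx-LPi-Lp mice, with overlapping groups. Its make-up is given next as percentages of this sum. The share of cluster B was 41.4% ± 1.74 in Sham mice, 36.5% ± 2.58 in 5/6 Nx-HPi-Lp mice, 37.3% ± 3 in 5/6 Nx-HPi-Hp mice and 34% ± 2.68 in 5/6 Nx-LPi-Lp mice. Every 5/6 Nx-LPi-Lp mouse lay below every Sham mouse in this share, and the other 5/6 Nx groups overlapped Sham mice.

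The share of cluster C was 8.48, 10.9, 9.29 and 9.84% in Sham mice and 17.7, 10.1, 16.4 and 18.8% in 5/6 Nx-HPi-Lp mice. It was 11.3, 10.2, 15 and 13% in 5/6 Nx-HPi-Hp mice and 16.9, 10.1, 15.9 and 12.3% in 5/6 Nx-LPi-Lp mice. 3 of the 4 5/6 Nx-HPi-Lp mice stood above all Sham mice, and replicate 2 stood among them. The share of cluster D was 2.07, 3.51, 3.47 and 3.07% in Sham mice against 5.15, 6.8, 3.81 and 5.6% in 5/6 Nx-HPi-Lp mice, which did not overlap. No test was run on these shares.

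Paralogs 9 to 13, the tailward set, took 8.2, 10.9, 9.69 and 10.4% of the Hox sum in Sham mice and 15.6, 7.84, 12 and 13% in 5/6 Nx-HPi-Lp mice. They took 7.1, 6.26, 8.51 and 11.2% in 5/6 Nx-HPi-Hp mice and 7.95, 9.04, 9.35 and 9.5% in 5/6 Nx-LPi-Lp mice. The 5/6 Nx-HPi-Lp mice held both the highest and one of the lowest shares, so the group as a whole overlapped the others. Within that group the libraries ranked in this share with 1 highest, then 4, 3 and 2. This was also their order in the sympathetic neuron sum (889, 39.6, 158 and 640 FPKM for replicates 1 to 4). It was not particular to that list. Schwann cell sums (179, 20.7, 30.8 and 47.7 FPKM) and adrenal marker sums (13.6, 3.36, 5.56 and 8.01) kept the same order. Fibroblast sums (844, 3618, 1585 and 1550 FPKM) and macrophage sums (509, 1883, 1092 and 987) ran in the reverse order. Smooth muscle sums (1981, 863, 1778 and 858 FPKM) and adipocyte sums (1242, 1211, 1270 and 2011), among others, followed neither order. In 5/6 Nx-LPi-Lp mice the neuron sums (45.3, 80.9, 88 and 140 FPKM) also ranked as the share did. In Sham mice (69.5, 60.2, 74.3 and 50.2 FPKM) and 5/6 Nx-HPi-Hp mice (65, 192, 69.5 and 204) the neuron sums did not. Whether those markers have a part in the share was not tested. The same composition is drawn for each library.

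**Figure D3:**
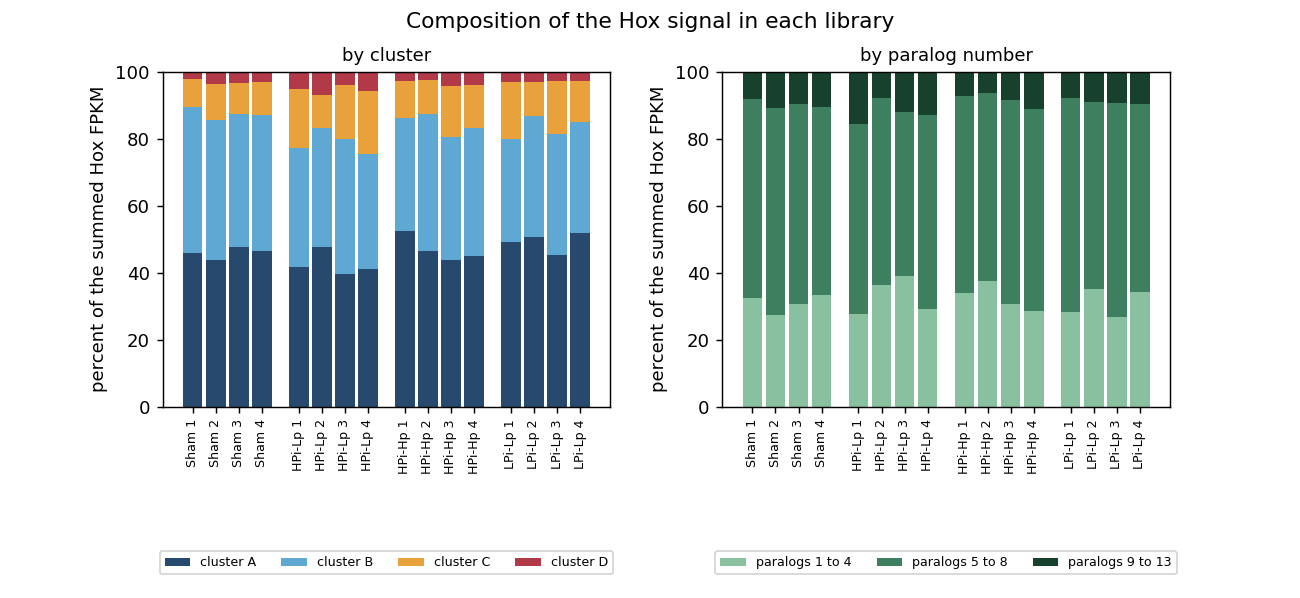
Percent of the summed Hox FPKM of each of the 16 libraries held by clusters A to D (left) and by paralogs 1 to 4, 5 to 8 and 9 to 13 (right), 1 stacked bar per library (5/6 Nx is left out of the axis labels). Clusters A and B fill most of every bar, cluster D reaches 6.80% in 5/6 Nx-HPi-Lp replicate 2, and paralogs 9 to 13 reach 15.6% in 5/6 Nx-HPi-Lp replicate 1 and 7.84% in replicate 2.

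In 5/6 Nx-HPi-Lp mice against Sham mice, which ate the same diet, 28 Hox genes passed the filter on low counts and 5 were called, 2 higher and 3 lower. One of the 2, Hoxb1, passed that filter only through the 5/6 Nx-HPi-Lp libraries. To be called, a gene needed a change of 2-fold or more and an adjusted p no higher than 0.05 (quasi-likelihood test of edgeR, Benjamini-Hochberg adjustment over all genes). Over all 16513 genes tested, 22.2% were called, 15% higher and 7.18% lower, so the share among Hox genes (17.9%) was near the background. Their median log2 fold change was -0.31, beside -0.0027 over all genes tested, and leaving out single mice moved it. It became -0.49, -0.18 and -0.15 when replicates 1, 2 and 3 of 5/6 Nx-HPi-Lp were dropped in turn, and -0.19 when Sham replicate 1 was. The direction ran by cluster. 9 of 10 HoxA genes and 7 of 9 HoxB genes had a log2 fold change below 0, with medians of -0.51 and -0.92. In HoxC 2 of 7 lay below 0 (median 0.39), and both HoxD genes tested lay above. The smooth muscle sums given at the outset, and the percentage of reads from the mitochondrial genome (4.18 to 6.34% in Sham and 19.3 to 27.1% in 5/6 Nx-HPi-Lp libraries), moved with the same comparison, and their part in the Hox values was not tested.

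**Figure D4:**
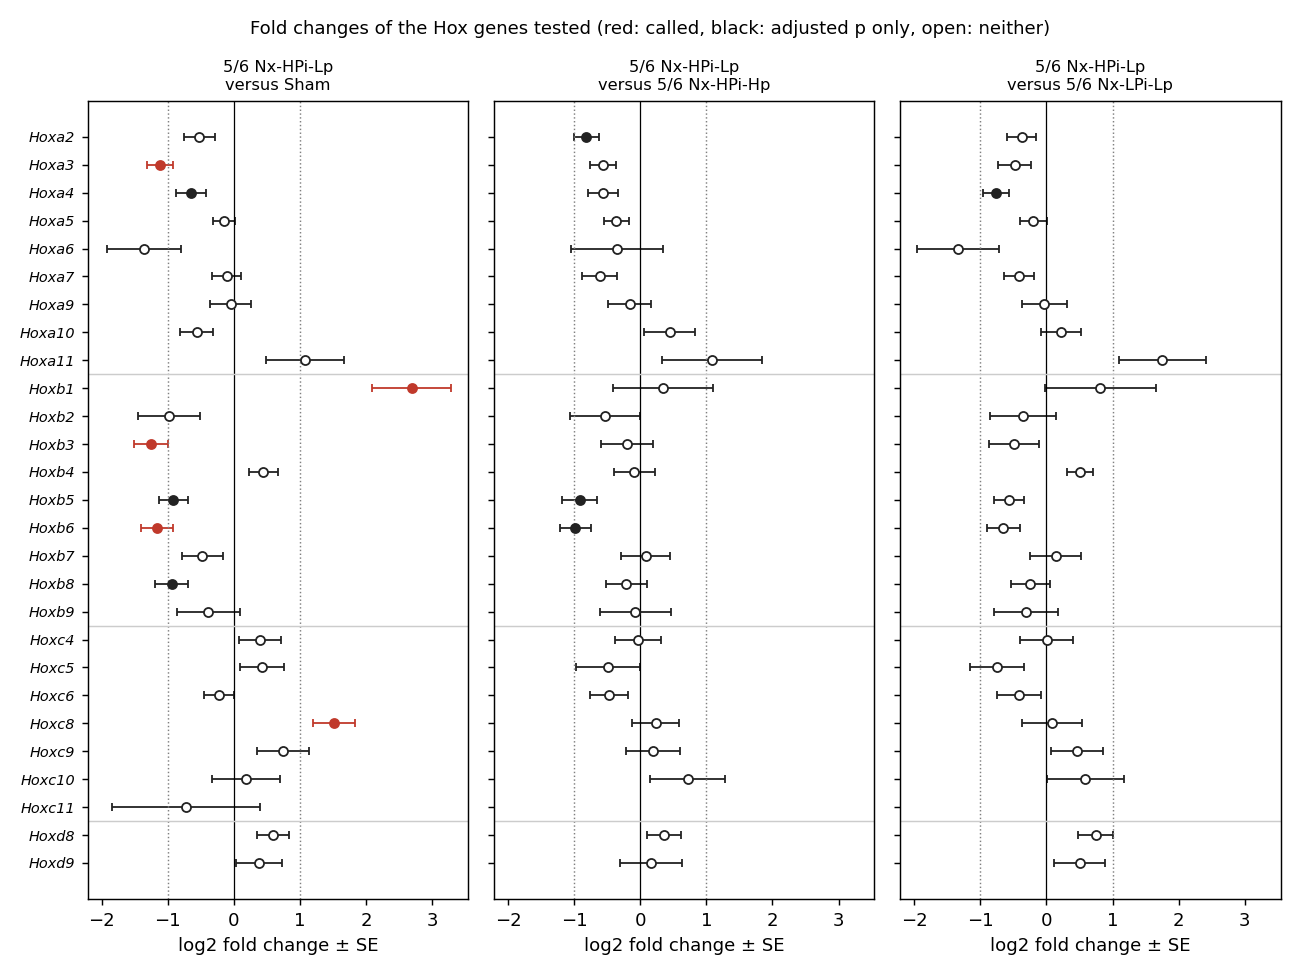
Log2 fold change ± SE from edgeR for the tested Hox genes shown, in 5/6 Nx-HPi-Lp mice against Sham, 5/6 Nx-LPi-Lp and 5/6 Nx-HPi-Hp mice, ordered by cluster and paralog number, with n = 4 mice per group. Red points passed both thresholds, filled black points the adjusted p alone and open points neither; dotted lines mark 2-fold. The 5 red points all belong to the comparison with Sham mice.

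Paralog 3, whose genes pattern the hindbrain and pharyngeal arches, fell in clusters A and B, and Hoxd3 was nearly silent. Hoxa3 (chr6:52169062-52213336, minus strand) had 9.27, 5.22, 6.85 and 8.79 FPKM in Sham mice and 3.56, 4.53, 3.13 and 2.94 in 5/6 Nx-HPi-Lp mice. It had 5.73, 5.15, 3.9 and 5.97 FPKM in 5/6 Nx-HPi-Hp mice and 4.54, 3.03, 5.34 and 6.84 in 5/6 Nx-LPi-Lp mice. Every 5/6 Nx-HPi-Lp mouse was below every Sham mouse, and the other groups overlapped both. The log2 fold change against Sham mice was -1.12 ± 0.20 (SE), with an adjusted p of 0.00171 by edgeR. Its row spans Hoxa4, Hoxa5 and Hoxa6, and 27.1% of its exonic bases are shared with other genes. Genes of the opposite strand (Hoxaas2, Hoxaas3, 5730596B20Rik and Gm29430) share 25.4%. Hoxaas2 was itself lower than in Sham mice (log2 fold change -1.36, adjusted p = 0.00455 by edgeR), as seen after its values were known. 5730596B20Rik was also lower (-1.68, adjusted p = 0.0379 by edgeR), while Hoxaas3 lay above 0 (0.58, adjusted p = 0.13) and Gm29430 was not tested. Reads of the 2 strands cannot be told apart here.

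Hoxb3 (chr11:96323326-96347930, plus strand) had 1.56, 1.13, 1.51 and 1.74 FPKM in Sham mice and 0.685, 0.463, 0.609 and 0.792 in 5/6 Nx-HPi-Lp mice. For 5/6 Nx-HPi-Hp mice they were 1.08, 0.559, 0.477 and 0.787 FPKM and the 5/6 Nx-LPi-Lp mice 0.746, 0.45, 1.18 and 1.18. Sham mice were the highest group, with no overlap with 5/6 Nx-HPi-Lp or 5/6 Nx-HPi-Hp mice. The log2 fold change was -1.26 ± 0.26 in 5/6 Nx-HPi-Lp mice (adjusted p = 0.00338 by edgeR) and -1.02 ± 0.29 in 5/6 Nx-HPi-Hp mice (adjusted p = 0.0279). An antisense gene, Hoxb3os, covers 52.9% of the exonic bases of Hoxb3. The call in 5/6 Nx-HPi-Hp mice was lost without any 1 of Sham replicates 1, 3 and 4 and 5/6 Nx-HPi-Hp replicates 2 and 3.

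Hoxb6 (chr11:96292476-96301569, plus strand), a trunk gene and one of the 4 highest members, fell in 5/6 Nx-HPi-Lp mice against Sham mice. Sham mice had 22.2, 13.5, 16.8 and 19.4 FPKM and 5/6 Nx-HPi-Lp mice 12.3, 7.38, 7.56 and 5.64. It stood at 13.3, 16.9, 17.2 and 17.6 FPKM in 5/6 Nx-HPi-Hp mice and 12.1, 10.3, 17 and 12.1 in 5/6 Nx-LPi-Lp mice. No 5/6 Nx-HPi-Lp mouse reached a Sham mouse, and replicate 1 came closest. The log2 fold change was -1.16 ± 0.24 against Sham mice (adjusted p = 0.0037 by edgeR), -0.65 ± 0.25 against 5/6 Nx-LPi-Lp mice (adjusted p = 0.092) and -0.98 ± 0.24 against 5/6 Nx-HPi-Hp mice (adjusted p = 0.0259). By mean level Hoxb6 was the highest Hox gene of Sham aortas (18 ± 3.72 FPKM, SD, n = 4) and the fourth of 5/6 Nx-HPi-Lp aortas (8.22 ± 2.86), where Hoxb4 led with 18.3 ± 5.18 FPKM. Hoxb4 itself had a log2 fold change of 0.45 ± 0.22 (adjusted p = 0.133 by edgeR). No other gene of the annotation shares exonic bases with Hoxb6.

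A further 3 HoxA and HoxB members passed the adjusted p against Sham mice at under 2-fold. These were Hoxb5 (log2 fold change -0.92 ± 0.22, adjusted p = 0.00745 by edgeR), Hoxb8 (-0.94 ± 0.25, adjusted p = 0.0124) and Hoxa4 (-0.65 ± 0.22, adjusted p = 0.0392). All 3 were lower in 5/6 Nx-HPi-Lp mice. Hoxa5 and Hoxa7, the strongest HoxA genes, had log2 fold changes of -0.15 ± 0.17 and -0.11 ± 0.22 and passed no threshold.

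Hoxb1, the member nearest the head end of cluster B (chr11:96365752-96368256, plus strand), is a retinoic acid target in the embryonic hindbrain. Its level was 0.0317, 0.09, 0.0185 and 0.0824 FPKM in Sham mice and 0.418, 0.478, 0.248 and 0.363 in 5/6 Nx-HPi-Lp mice. In 5/6 Nx-HPi-Hp mice it was 0.115, 0.292, 0.739 and 0.0686 FPKM and in 5/6 Nx-LPi-Lp mice 0, 0.439, 0.127 and 0.284. The 4 5/6 Nx-HPi-Lp mice all stood above all Sham mice, while the other 5/6 Nx groups ran from Sham-like levels to higher ones. These values rest on 2, 5, 1 and 5 counts in Sham libraries and 15, 62, 26 and 13 counts in 5/6 Nx-HPi-Lp libraries. Hoxb1 passed the filter on low counts only through the 5/6 Nx-HPi-Lp libraries, and it was not tested in the other 5/6 Nx groups against Sham mice, so a member admitted in this way had to differ. With that limit, the log2 fold change was 2.68 ± 0.59 with an adjusted p of 0.0053 by edgeR, at a level that stayed under 1 FPKM in every library.

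Hoxc8 (chr15:102990607-102994111, plus strand), which marks the thoracic region in the embryo, rose in all 3 5/6 Nx groups. Sham mice had 1.69, 1.83, 2.23 and 1.76 FPKM and 5/6 Nx-HPi-Lp mice 7.15, 2.57, 4.77 and 7.48. The 5/6 Nx-HPi-Hp mice had 3.62, 3.99, 7.24 and 3.8 FPKM and the 5/6 Nx-LPi-Lp mice 8.56, 1.94, 6.16 and 3.79. Sham mice were low and even, and the other groups were higher and uneven, with 5/6 Nx-LPi-Lp replicate 2 the only 5/6 Nx library inside the Sham range. Log2 fold changes against Sham mice were 1.52 ± 0.32 in 5/6 Nx-HPi-Lp mice (adjusted p = 0.00389 by edgeR), 1.30 ± 0.25 in 5/6 Nx-HPi-Hp mice (adjusted p = 0.0097) and 1.45 ± 0.37 in 5/6 Nx-LPi-Lp mice (adjusted p = 0.0165). The 3 comparisons share the Sham mice. The last of these calls was lost without Sham replicate 2. No gene of the annotation shares exonic bases with Hoxc8.

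Adipocyte marker sums stood above all Sham mice in every 5/6 Nx library but 1. The sums were 144, 242, 380 and 254 FPKM in Sham mice, 1242, 1211, 1270 and 2011 in 5/6 Nx-HPi-Lp mice, 1770, 901, 2441 and 352 in 5/6 Nx-HPi-Hp mice and 2301, 1016, 1260 and 806 in 5/6 Nx-LPi-Lp mice. The highest Hoxc8 library of each 5/6 Nx group was also the highest of its group in this sum, and 5/6 Nx-HPi-Hp replicate 4, whose adipocyte sum lay in the Sham range, had a Hoxc8 level above every Sham mouse. The part of fat around the vessel in the Hoxc8 values was not tested. 7 of the 8 adipocyte genes were called higher in 5/6 Nx-HPi-Lp mice against Sham mice, beside 15% of all genes tested. So were all 8 macrophage genes, 7 of 8 Schwann cell genes and 7 of 8 sympathetic neuron genes tested. Of the 10 neuron genes listed, 8 were tested here and 5 in 5/6 Nx-LPi-Lp mice against Sham mice. A member that passes the filter on low counts only through libraries where it is high has to differ. 

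**Figure D5:**
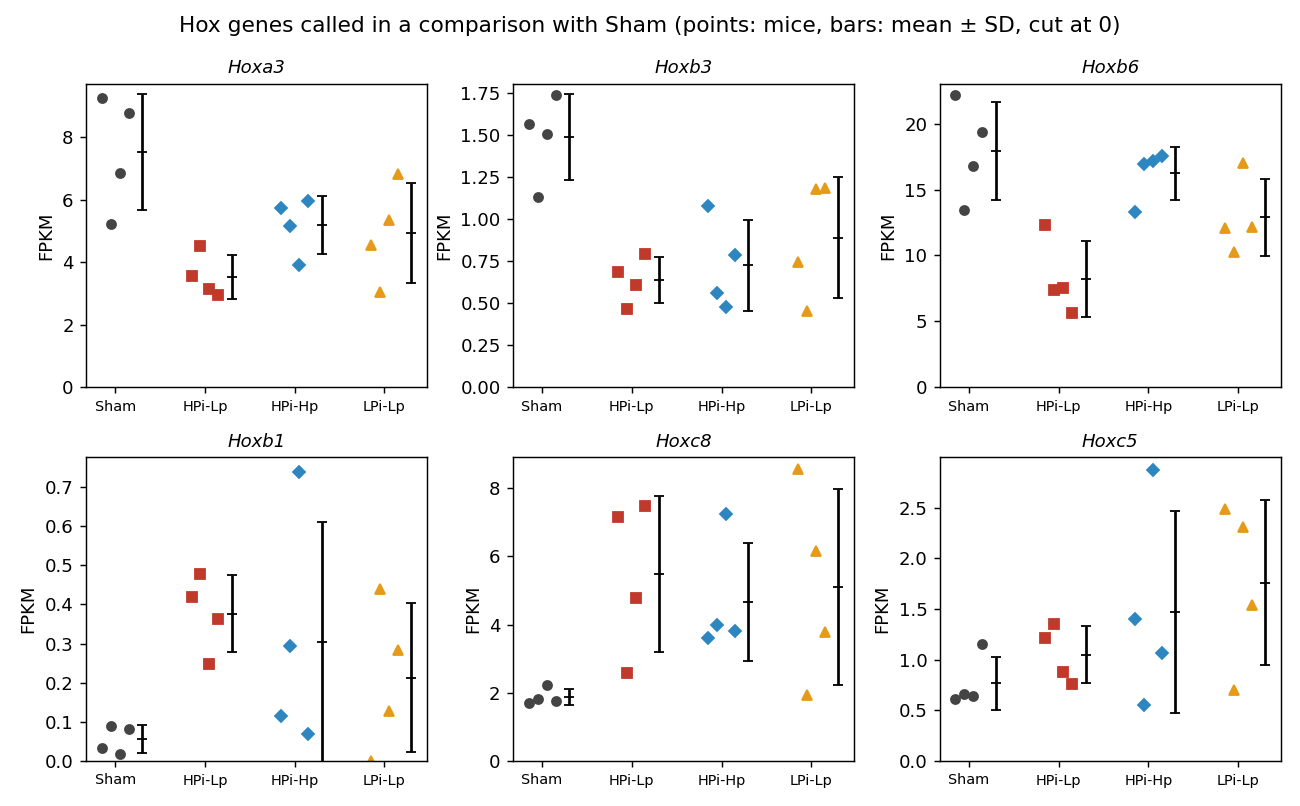
FPKM of the 6 Hox genes called in at least 1 comparison with Sham mice, 1 panel per gene with the 4 groups on the x axis, points for single mice and black bars for mean ± SD (n = 4), cut at 0. Sham mice lie above all 5/6 Nx-HPi-Lp mice for Hoxa3, Hoxb3 and Hoxb6 and below them for Hoxb1 and Hoxc8, and for Hoxc5 the groups overlap.

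Against 5/6 Nx-HPi-Hp mice, which differ from 5/6 Nx-HPi-Lp mice in dietary protein, 0 of 27 Hox genes tested were called by edgeR, beside 8.12% of all 16198 genes (5.01% higher and 3.11% lower). 6 of the 27 had an unadjusted p under 0.05, and DESeq2 called 0 as well, also with 6. Hoxa2 (-0.81 ± 0.19, adjusted p = 0.0233 by edgeR), Hoxb5 (-0.91 ± 0.27, adjusted p = 0.0487) and Hoxb6 passed the adjusted p at under 2-fold, all lower in 5/6 Nx-HPi-Lp mice. For Hoxa2, a gene of the hindbrain, 5/6 Nx-HPi-Lp mice had 5.43, 4.85, 4.95 and 5.84 FPKM and 5/6 Nx-HPi-Hp mice 8.72, 10.6, 10.5 and 7.27, without overlap. The median over the 27 was -0.20, beside 0.01 over all genes tested. Dropping 5/6 Nx-HPi-Lp replicates 1 to 4 in turn gave -0.52, -0.07, -0.13 and -0.13, and dropping 5/6 Nx-HPi-Hp replicate 3 gave -0.11. In the same comparison 6 of 8 fibroblast and 7 of 8 macrophage genes were called higher and 6 of 8 smooth muscle genes lower, and the part of these markers in the Hox values was not tested. Fibroblast sums were 844 to 3618 FPKM in 5/6 Nx-HPi-Lp mice, 345 to 736 in 5/6 Nx-HPi-Hp mice and 500 to 729 in Sham mice.

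Against 5/6 Nx-LPi-Lp mice, which differ in dietary phosphorus, 0 of 27 were called by edgeR, beside 11.9% of all 16253 genes (7.9% higher and 3.98% lower). An unadjusted p under 0.05 was reached by 6 in edgeR and by 8 in DESeq2, which also called 0. Hoxa4 passed the adjusted p alone, with 5.72, 6.23, 4.57 and 4.1 FPKM in 5/6 Nx-HPi-Lp mice and 10.6, 7.92, 7.49 and 8.97 in 5/6 Nx-LPi-Lp mice, which did not overlap. Its log2 fold change was -0.76 ± 0.20 (adjusted p = 0.0288 by edgeR). Without the library with the highest heart muscle sum, 5/6 Nx-LPi-Lp replicate 2, the count stayed at 0.

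The other 5/6 Nx groups were set against Sham mice in the same way. Mitochondrial reads made up 9.5 to 29% in 5/6 Nx-HPi-Hp and 14.2 to 21.1% in 5/6 Nx-LPi-Lp libraries, against 4.18 to 6.34% in Sham libraries. Smooth muscle sums were 2223 to 8809 FPKM in 5/6 Nx-HPi-Hp, 2780 to 6637 in 5/6 Nx-LPi-Lp and 7947 to 10005 in Sham mice. The part of either in the Hox values was not tested. In 5/6 Nx-HPi-Hp mice 2 of 25 Hox genes tested were called, beside 12.2% of 15882 genes (9.41% higher and 2.75% lower), namely Hoxc8, higher, and Hoxb3, lower. Hoxa10, a gene of the lumbar level, passed the adjusted p at just under 2-fold (log2 fold change -0.98 ± 0.33, adjusted p = 0.045 by edgeR), with 2.91, 3.02, 2.36 and 4.2 FPKM in Sham mice and 1.6, 1.22, 0.858 and 2.6 in 5/6 Nx-HPi-Hp mice. Those groups overlapped through replicate 4 of the 5/6 Nx-HPi-Hp mice. Hoxa7 (0.52 ± 0.16, adjusted p = 0.0369 by edgeR) and Hoxc9 (0.57 ± 0.19, adjusted p = 0.0462) passed the adjusted p there too. Both were higher, at under 2-fold. In 5/6 Nx-LPi-Lp mice 2 of 26 were called, beside 10.9% of 16071 genes (8.79% higher and 2.08% lower), namely Hoxc8 and Hoxc5, both higher. Hoxa7, higher (0.35 ± 0.11, adjusted p = 0.0345 by edgeR), and Hoxa10, lower (-0.75 ± 0.25, adjusted p = 0.0478), passed the adjusted p at under 2-fold. All 8 HoxB genes tested there had log2 fold changes below 0, from -0.72 to -0.01, and none passed a threshold. Hoxc5 had 0.607, 0.663, 0.641 and 1.15 FPKM in Sham mice and 2.48, 0.702, 2.31 and 1.54 in 5/6 Nx-LPi-Lp mice, overlapping through replicate 2, and a log2 fold change of 1.21 ± 0.38 (adjusted p = 0.0378 by edgeR). That call was lost without any 1 of Sham replicates 1 to 3 and 5/6 Nx-LPi-Lp replicates 1 and 3. Between 5/6 Nx-LPi-Lp and 5/6 Nx-HPi-Hp mice 0 of 26 were called by edgeR, beside 0% of 15850 genes, with 0 at an unadjusted p under 0.05. DESeq2 called 0 there, with 1 at an unadjusted p under 0.05.

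Over all 4 groups together, 9 of 28 Hox genes differed at an adjusted p of at most 0.05, beside 50.7% of 17443 genes in that fit. These were Hoxa2, Hoxa3, Hoxa4, Hoxb3, Hoxb5, Hoxb6, Hoxb8, Hoxc8 and Hoxd8. The smallest adjusted p belonged to Hoxb6 (0.00326 by edgeR), and the other 8 lay between 0.00941 and 0.0482. None was a gene of paralogs 9 to 13.

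Hox proteins bind DNA with TALE partners, the Pbx, Meis and Pknox proteins. All 9 TALE genes were tested in 5/6 Nx-HPi-Lp mice against Sham mice, 1 was called lower and 0 higher, and 5 in all passed the adjusted p, each of them lower. Over all genes 7.18% were called lower. The share of all genes passing the adjusted p alone is not given here, so counts by it have no background beside them. In 5/6 Nx-HPi-Hp mice and again in 5/6 Nx-LPi-Lp mice, set against the same Sham mice, 5 passed the adjusted p lower and 1 higher. Pknox2 had 2.04, 2.12, 2.39 and 1.85 FPKM in Sham mice and 0.613, 1.08, 1.26 and 0.921 in 5/6 Nx-HPi-Lp mice, without overlap (log2 fold change -1.13 ± 0.20, adjusted p = 0.00178 by edgeR). Meis1 (-0.95 ± 0.13, adjusted p = 0.000385 by edgeR) and Meis2 (-0.73 ± 0.16, adjusted p = 0.00559) fell by less than 2-fold. The list had a median of -0.47, beside -0.53 in 5/6 Nx-HPi-Hp and -0.37 in 5/6 Nx-LPi-Lp mice. No TALE gene was called against 5/6 Nx-LPi-Lp or 5/6 Nx-HPi-Hp mice, and none of the 9 passed the adjusted p there.

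Retinoic acid, made from vitamin A, switches on headward Hox genes in the embryo. Of 18 genes of its uptake, synthesis, breakdown and receptors, 15 were tested and 5 were called higher and 0 lower in 5/6 Nx-HPi-Lp mice against Sham mice, with a median of 0.79. Over all genes 15% were called higher. By the adjusted p alone 8 were higher and 2 lower, without the same share of all genes beside them. The summed FPKM of the list was 273 ± 21.1 in Sham mice and 235 ± 26.3 in 5/6 Nx-HPi-Lp mice (SD, n = 4). In 5/6 Nx-HPi-Hp mice against Sham mice 4 were called higher and 1 lower, beside 9.41% and 2.75% of all genes tested. Crabp2, which carries retinoic acid to its receptors, had 0.195, 0.221, 0.13 and 0.434 FPKM in Sham mice and 2.4, 31.6, 11.3 and 11.3 in 5/6 Nx-HPi-Lp mice (log2 fold change 5.80 ± 0.78, adjusted p = 0.000349 by edgeR). That fold change rests on Sham values of at most 0.434 FPKM. A gene that passes the filter on low counts only through libraries where it is high has to differ. Which libraries admitted Crabp2 is not given here. Its p-values and its place among the 5 called therefore carry that limit and are not read as support. In 5/6 Nx-LPi-Lp mice against Sham mice 14 genes of the list were tested. Stra6, the receptor for retinol's carrier, had a log2 fold change of 3.25 ± 0.48 in 5/6 Nx-HPi-Lp mice against Sham mice (adjusted p = 0.000557 by edgeR). Aldh1a2, which makes retinoic acid, went from 1.5 ± 0.451 to 8.94 ± 4.46 FPKM (SD, n = 4), and Rxrg, a receptor, from 1.12 ± 0.222 to 5.22 ± 1.46. Crabp2 was also higher than in 5/6 Nx-HPi-Hp mice (3.62 ± 0.84, adjusted p = 0.0232 by edgeR) and 5/6 Nx-LPi-Lp mice (4.85 ± 0.87, adjusted p = 0.0066). In each of these comparisons 3 genes of the list were called higher, beside 5.01% and 7.9% of all genes tested. The part of these genes in the Hox values was not tested.

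Polycomb proteins keep Hox genes silent and Trithorax proteins keep them active. Of 20 Polycomb genes, all tested, 1 was called higher and 2 lower in 5/6 Nx-HPi-Lp mice against Sham mice, beside 15% higher and 7.18% lower over all genes. By the adjusted p alone 1 was higher and 8 were lower. The share of all genes passing the adjusted p alone is not given here, so these counts are not read as a change of the list. The summed FPKM of the list was 156 to 194 in 5/6 Nx-HPi-Lp mice and 227 to 247 in Sham mice. Ezh2, the methyltransferase, rose (1.15 ± 0.21, adjusted p = 0.00212 by edgeR), and Cbx7 (-1.25 ± 0.30, adjusted p = 0.00833) and Phf19 (-1.11 ± 0.33, adjusted p = 0.0216), both partners of these complexes, fell. Cbx7 had 20.1, 18.7, 18.8 and 21.1 FPKM in Sham mice and 14.4, 4.57, 6.14 and 8.8 in 5/6 Nx-HPi-Lp mice. Ring1, an E3 ligase of the complex, was lower than in 5/6 Nx-HPi-Hp mice (-1.36 ± 0.22, adjusted p = 0.00581 by edgeR). Of 9 Trithorax genes tested, 0 were called in any of these 3 comparisons, and 1, Men1, passed the adjusted p alone, lower than in 5/6 Nx-HPi-Hp mice (-0.43 ± 0.12, adjusted p = 0.0452 by edgeR). The 8 caudal, ParaHox and Evx genes, relatives of the Hox genes that include the Hox regulators Cdx1, Cdx2 and Cdx4, all failed the filter on low counts, and Cdx2 and Cdx4 were listed at 0 in all libraries.

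Transcription factors of the heart and its outflow tract mark the root of the aorta. Of 10 such genes, 9 were tested and 2 were called higher and 2 lower in 5/6 Nx-HPi-Lp mice against Sham mice, beside 15% higher and 7.18% lower over all genes. Gata6 (-1.11 ± 0.11, adjusted p = 8.74e-05 by edgeR) and Mef2c (-1.63 ± 0.13, adjusted p = 2.55e-05) were lower, and both are also smooth muscle factors. Hand2 (1.35 ± 0.34, adjusted p = 0.0106) and Hand1 (4.18 ± 1.37, adjusted p = 0.033) were higher, and Hand2 is also a gene of sympathetic neurons. Hand1 read 10.1, 0.00897, 1.45 and 5.45 FPKM in 5/6 Nx-HPi-Lp replicates 1 to 4, which follows the order of their neuron sums.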

How the data were processed

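RNA was read from whole-tissue aorta of 16 mice, 4 per group, in poly-T selected libraries. Per the labels and the study's methods, the authors aligned reads to mm10 with HISAT2, counted them per gene with featureCounts 1.5.0-p3 and deposited counts and FPKM. The deposited FPKM values carried a between-library scaling. Whether counting used strand is not given in the sources used here. Nothing states more than 1 library per mouse, and no pair of libraries of a group agreed within sampling noise (chi-square over counts). The Hox members, the gene lists and the tests were chosen with earlier results of these data known.

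Counts were tested with edgeR 4.0.16 in R 4.3.3 (filterByExpr, TMM, quasi-likelihood test, Benjamini-Hochberg adjustment over all genes), with the 8 libraries of each pair of groups in 1 fit, and with all 16 for the test over 4 groups. A call needed a 2-fold change with an adjusted p no higher than 0.05. P-values cover the spread between these mice. Levels are means of deposited FPKM ± SD, and shares were sums of FPKM. Named genes were those called in a comparison of 5/6 Nx-HPi-Lp mice, the highest of each cluster and the highest-numbered at 0.1 FPKM or more of each cluster. Genes of the pathway lists were named by size of change, at most 4 per list, and other genes after their values were seen. On simulated counts for 5/6 Nx-HPi-Lp versus Sham mice, with 200 of 16513 genes changed, edgeR called 144 of the 200 and 5 others. In the measured counts 22.2% of genes were called. The simulation held no shift that broad, so its number of false calls need not carry over. Alternatives used DESeq2 1.42.0 and limma 3.58.1 on log2(FPKM + 1) or log2(FPKM + 0.1). Exon overlap was taken from GENCODE, and promoter windows from RefSeq GRCm38.p6. Figures were drawn with matplotlib 3.10.9. No column of the tables was left without a sample. Protein sequences were not used here. Some items are not reported here, in the text or the figures, although they entered the counts and sums.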

Additional observations from a re-analysis of the deposited data

Results flagged for a closer look

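The named Hox genes, the Hox sum and the shares by cluster and paralog set were checked within each group, in 84 checks. In 5 of them, 1 mouse stood apart from the other 3 by a gap past Dixon's critical value for 4 samples. All 5 were checks of a single Hox gene, which made up only a part of the 84. About 1 in 20 such checks does so by chance. For Hoxa7 it was the highest mouse in each 5/6 Nx group, at 21.2 FPKM in 5/6 Nx-HPi-Lp replicate 1, 28.5 in 5/6 Nx-HPi-Hp replicate 2 and 21.5 in 5/6 Nx-LPi-Lp replicate 1. Hoxc8 had its highest value of the 5/6 Nx-HPi-Hp group, 7.24 FPKM, in replicate 3, which also had the highest adipocyte sum of that group. Hoxb6 had its lowest value of the same group, 13.3 FPKM, in replicate 1.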

How the results depend on the processing

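The precision rests on 4 mice per group, and members under about 10 counts per library, such as Hoxb1 in Sham mice and the genes of paralogs 12 and 13, could not be resolved further. No alternative reversed a direction. Of the 5 calls against Sham mice in 5/6 Nx-HPi-Lp mice, Hoxb6 and Hoxc8 held in 16 of 16 alternatives and Hoxa3, Hoxb3 and Hoxb1 in 15, all 3 being lost with limma on log2(FPKM + 1), which left 2 calls and which understates changes of low genes. Without the fold threshold 8 were called, DESeq2 called 7, adding Hoxa6 and Hoxd10, and leaving out 1 mouse gave 5 to 7. Against 5/6 Nx-HPi-Hp mice the count of 0 became 1 with limma on log2(FPKM + 0.1), 3 with no fold threshold and 0 to 2 without 1 mouse, 2 being reached without 5/6 Nx-HPi-Lp replicate 1 (Hoxb5 and Hoxb6). Against 5/6 Nx-LPi-Lp mice it became 1 with all 16 libraries in one fit (Hoxa11), 1 with no fold threshold and 0 to 1 without 1 mouse. For 5/6 Nx-HPi-Hp versus Sham mice the count of 2 became 0 with limma on log2(FPKM + 1), 5 with no fold threshold and 1 to 3 without 1 mouse. For 5/6 Nx-LPi-Lp versus Sham mice it became 1 with all 16 libraries in one fit, 0 with limma at either pseudocount, 4 with no fold threshold and 0 to 2 without 1 mouse, the 0 being reached without Sham replicate 2. The 9 genes of the test over 4 groups became 5 to 12 without 1 mouse. With CPM in place of FPKM, paralogs 9 to 13 took 11.7% of the Hox sum in Sham mice and 10.8% in 5/6 Nx-LPi-Lp mice, against 9.81% and 8.96%. Same-numbered mice did not deviate together in every pair of any comparison, so the numbers were not taken to pair them. A replicate block gave 5 calls for 5/6 Nx-HPi-Lp, 3 for 5/6 Nx-HPi-Hp and 1 for 5/6 Nx-LPi-Lp mice against Sham mice, 0 in the other 3 comparisons and 8 genes over the 4 groups. Except where a value or construction is given, the cause of these moves was not tested.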
